A study of Rattus norvegicus with 241 samples.

Results

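The genes described here are PTHLH and PTH1R, the 2 members chosen from 16820 gene symbols of the bulk tables by name, for the way their levels differed with cell fraction, parity and treatment. PTHLH encodes parathyroid hormone-related protein (PTHrP), a secreted ligand, and PTH1R encodes the receptor that PTHrP shares with parathyroid hormone. Both genes were found in every bulk table, and PTH1R in each of the 3 single-cell tables, whereas PTHLH was not analysed here in single cells. The levels of both genes across fractions, cell classes, parity and treatment are therefore a description without a test.

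PTHrP is best known for holding back the maturation of growth plate chondrocytes and for the high calcium of some cancers. In the embryonic mammary bud it is made by the epithelium and acts on PTH1R in the surrounding mesenchyme, which is thereby directed to a mammary fate, and in lactation it is secreted into milk and blood. PTH1R is a G protein-coupled receptor that raises cyclic AMP through Gs and adenylyl cyclase and can also signal through Gq and phospholipase C.

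Female ACI and Sprague Dawley (SD) rats received the TGFβ type I receptor inhibitor LY2157299 (TGFBRi) or vehicle, at 75 mg/kg, 2 times per day for 10 days, or for 21 days in the estradiol experiment. Young ACI rats were treated from 35 days of age and killed at the end of dosing (day 0), or 7 or 14 days later (3 rats per group), and young SD rats from 24 days of age and killed on day 0 (4 per group). Adult ACI rats of 18 to 24 weeks were virgin or parous (4 per group in epithelial fractions). SD rats of the NMU experiment all received the carcinogen N-nitroso-N-methylurea at 50 mg/kg and TGFBRi or vehicle from 21 days of age, and ACI rats of the E2 experiment were treated from 38 days of age and carried an implant with estradiol (E2) or with air, here called without E2, from 60 days of age. In the NMU experiment, 3 vehicle rats with tumors, 3 TGFBRi-treated rats with tumors and 3 without tumors were sampled. In the E2 experiment 4 vehicle rats without E2, 4 vehicle rats with E2 and tumors, 3 TGFBRi-treated rats without E2, and, with both E2 and TGFBRi, 4 rats free of tumors and 2 with tumors were sampled. Basal (CD24+CD29high), luminal (CD24+CD29low) and CD45+ cells were sorted from glands, and EPCAM+ and CD45+ cells from NMU-induced tumors (3 rats per treatment). Single cells came from young virgin rats killed at day 0, as sorted basal and luminal cells of ACI rats (3 vehicle, 3 TGFBRi) and SD rats (3 vehicle, 6 TGFBRi) and as whole glands of SD rats (3 vehicle, 6 TGFBRi). NMU rats were killed 87 days after NMU, and rats of the E2 experiment after tumors had developed. The bulk set held 202 samples with 4194912 to 52314784 reads on genes, and the single-cell set 39 libraries with 563 to 16424 cells each.

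Defining markers of each sort were present, but several sorted fractions also carried fibroblast RNA. In EPCAM+ tumor samples the summed level of 8 fibroblast markers ran from 9739 to 78444 reads per 1e6 reads on genes (RPM), against 1720 to 11214 for the 4 luminal keratin and EPCAM markers, so that these samples are called by their sort and not as pure tumor epithelium. In 5 of the 6 samples the fibroblast sum was above the luminal sum, vehicle rat 3 being the other. Basal samples of young SD rats held 5038 to 11926 RPM of 7 basal markers and 17011 to 56958 RPM of fibroblast markers, and CD45+ samples of young ACI rats held up to 88952 RPM of fibroblast markers. In bulk samples, fewer cells of a type and less RNA per cell cannot be told apart.

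PTHLH, the ligand, had its highest medians in basal cells. Levels are given here as RPM, since the tables of different experiments were normalized separately. In basal cells the median over all rats was 16.4 RPM in young ACI (8.66 to 54.1, 18 rats), 9.80 in young SD (8.02 to 16.8, 8 rats), 17.6 in adult ACI (7.67 to 364, 16 rats) and 11.01 in NMU-treated SD glands (6.65 to 15.9, 9 rats). Luminal cells of these experiments had medians of 4.31, 1.41, 2.85 and 1.62 RPM, and CD45+ cells of 0.744, 0.336, 0.727 and 0.818 RPM. Sorted basal samples held more PTHLH than luminal samples of the same rat in 51 of 51 rats, and the median ratio per experiment ran from 4.88 to 8.39. Several of these sorted samples carried fibroblast RNA, and PTHLH was not analysed in single cells, so the cell that made the transcript is not shown. The ranges of luminal and CD45+ samples overlapped in each of these experiments, so that no order is read between those fractions. EPCAM+ tumor samples lay between the basal and luminal medians of NMU glands, with a median of 6.13 RPM and 1 high sample at 25.04.

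PTH1R, the receptor, had its lowest medians in luminal cells of the 4 experiments with all 3 fractions. The median in basal cells was 4.05 RPM in young ACI, 11.8 in young SD, 5.84 in adult ACI and 7.53 in NMU glands, against 0.580, 1.23, 0.591 and 2.30 RPM in luminal cells. Sorted basal samples exceeded luminal samples of the same rat in 48 of 51 rats. This is an order of sorted samples, several of which carried fibroblast RNA. In whole-gland single cells described below, basal-like and luminal-like cells held few PTH1R transcripts, and no order is read between them. CD45+ cells had medians of 4.93, 6.64, 1.69 and 5.92 RPM in the same order, and their ranges overlapped those of basal and of luminal cells in each experiment, so that no order is read from them. In the E2 experiment, which has no basal samples, the median was 0.377 RPM in luminal and 0.0341 RPM in CD45+ cells. EPCAM+ tumor samples stood far above all gland fractions, with 184, 133 and 79.8 RPM in vehicle rats and 138, 128 and 156 RPM in TGFBRi-treated rats. The lowest of these was above the highest gland sample, a CD45+ sample of a vehicle SD rat at 63.99 RPM. No test was made across tables.

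**Figure D1:**
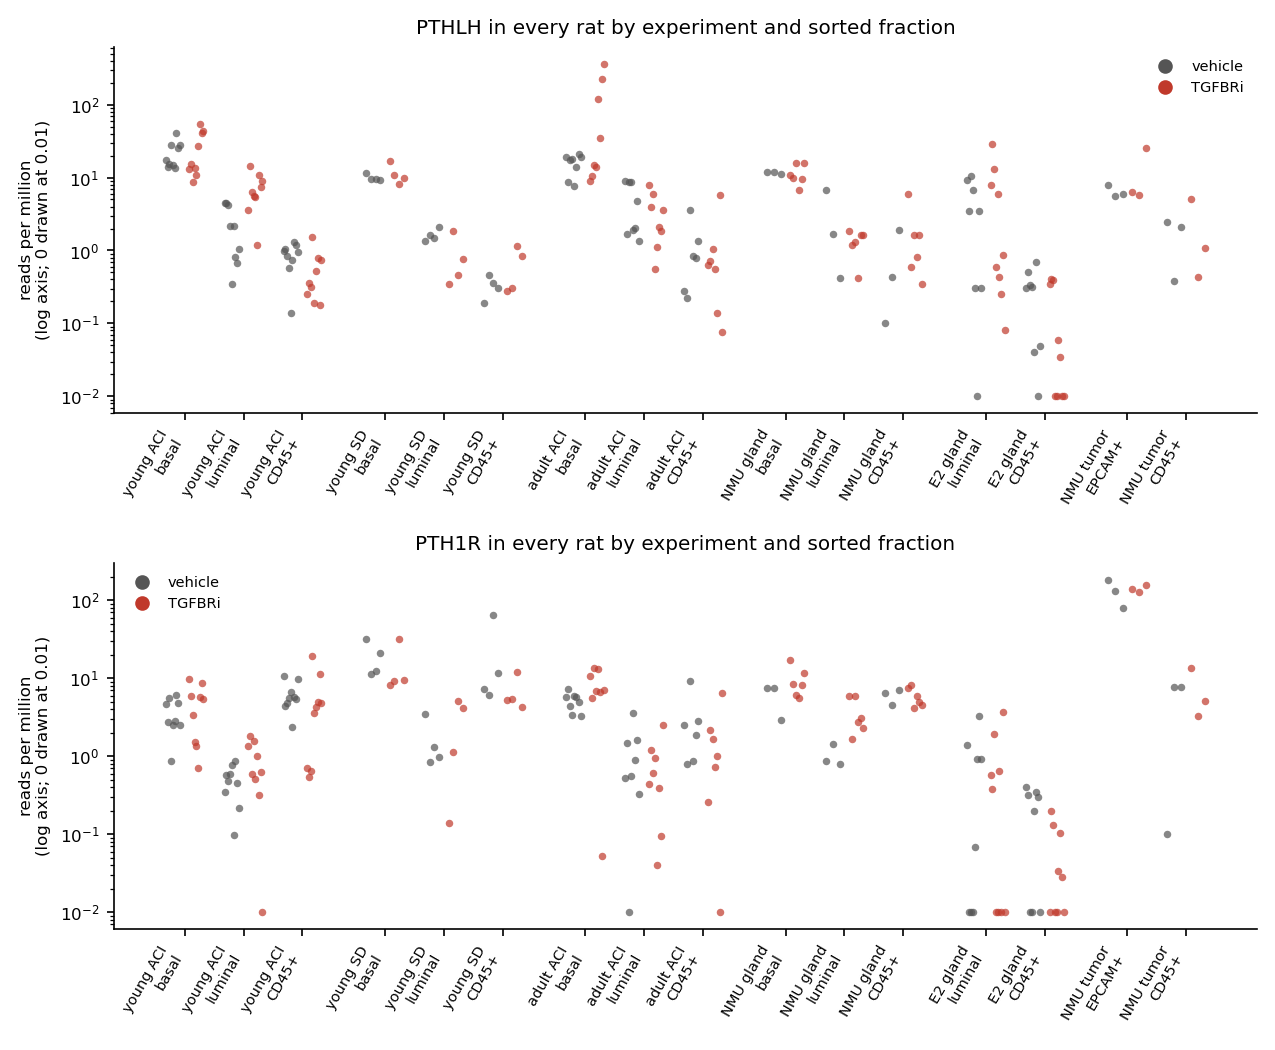
PTHLH (top) and PTH1R (bottom) in each rat in RPM on a log axis, by experiment and sorted fraction, with vehicle in grey and TGFBRi in red and values of 0 drawn at 0.01. The medians of PTHLH were highest in basal cells of every experiment that has them, the 4 virgin TGFBRi samples of adult basal cells lay between 34.3 and 364, and PTH1R was highest in EPCAM+ tumor samples at 79.8 to 184.

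Levels of PTH1R and of stromal markers in bulk fractions are set side by side here. The EPCAM+ tumor samples with 9739 to 78444 RPM of fibroblast markers had 79.8 to 184 RPM of PTH1R, whereas luminal cells of NMU glands with 278 to 4680 RPM of these markers had at most 5.99 RPM of PTH1R. Young SD basal samples, with 17011 to 56958 RPM of the markers, had only 8.31 to 32.2 RPM of PTH1R, and young ACI CD45+ samples, with up to 88952 RPM, at most 19.1. Of the 6 tumor samples, vehicle rat 3 was lowest in both (79.8 RPM of PTH1R, 9739 RPM of fibroblast markers) and vehicle rat 1 highest in both (184 and 78444). TGFBRi rat 3, with 156 RPM of PTH1R, had the second lowest marker sum (20376). Single markers gave other orders. PDGFRA was highest in TGFBRi rat 2 (306 RPM), with 181 in TGFBRi rat 3, 169 in vehicle rat 1 and 62.8 in vehicle rat 3. COL1A1 was highest in TGFBRi rat 1 (26378 RPM) and lowest in TGFBRi rat 3 (3702). Basal samples of NMU glands had 1652 to 11210 RPM of the markers and 2.90 to 17.2 RPM of PTH1R. In CD45+ cells of young ACI rats at day 0, PTH1R was 10.8, 4.37 and 4.88 RPM in vehicle rats and 0.710, 0.544 and 0.639 RPM in TGFBRi-treated rats. These values did not overlap, as in 16.5% of all genes tested. Fibroblast marker sums of the same samples were 12675 to 32338 RPM in vehicle and 988 to 7294 RPM in TGFBRi-treated rats. At later days CD45+ PTH1R overlapped between treatments, with 128, 134 and 217 normalized counts in vehicle and 112, 236 and 109.3 in TGFBRi-treated rats at day 7, and 117, 138 and 49.3 against 475, 81.4 and 104.9 at day 14. PTHLH of these CD45+ samples was 22.2, 30.4 and 19.5 counts with vehicle and 5.12, 7.48 and 7.72 with TGFBRi at day 0, again without overlap. A week later it was 28.6, 29.4 and 20.8 with vehicle and 17.7, 3.75 and 16.5 with TGFBRi, without overlap as in 8.96% of genes, and at day 14 the groups overlapped. The CD45+ sample at 63.99 RPM, vehicle SD rat 3, also had the highest fibroblast sum of its group at 42742 RPM, and the other 3 vehicle samples held 6.03 to 11.8 RPM of PTH1R. The part of stromal cells in these levels was not tested in bulk.

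Single cells of whole SD glands showed where PTH1R transcripts lay. Of 103524 cells from 3 vehicle and 6 TGFBRi-treated rats at day 0, clusters were named from markers, and 2373 PTH1R unique molecular identifiers (UMIs) were counted. Fibroblast-like cells held 1699 of these in 10694 cells, or 18.6 UMIs per 1e6 (CPM, 95% exact Poisson interval 17.7 to 19.5), and pericyte-like cells 414 in 5294 cells, or 15.8 CPM (14.3 to 17.4). These intervals cover counting error only. At least 1 UMI was seen in 11.4% of fibroblast-like cells at a median of 7684.5 UMIs per cell, and in 6.91% of pericyte-like cells at 3897. The share was 0.0405% in basal-like cells at a similar depth of 6822 UMIs. All other named classes had 0.972 CPM or less. Macrophage-like cells had 0.972 CPM, endothelium-like cells 0.502, lymphatic endothelium-like cells 0.460 and B cell-like cells 0.187. Luminal progenitor-like cells had 0.0769 CPM, luminal-like cells 0.0764, T cell-like cells 0.0754 and basal-like cells 0.0660, each from at most 7 UMIs, so that their order has no footing. NK cell-like and Schwann-like cells had 0 UMIs, for which a limit of 3 counts gives 0.449 and 0.726 CPM.

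The fibroblast-like cells fell into 2 clusters. The larger, with APOD, TNFAIP6, POSTN and ITM2A among its leading genes, held 1537 PTH1R UMIs in 7984 cells (22.9 CPM). The smaller, led by MFAP5 and FBN1 with PI16 and DPP4 among its leading genes, held 162 in 2710 cells (6.68 CPM). PTH1R was higher in the first cluster in 9 of 9 rats. An unnamed cluster of 1331 cells that carried endothelial markers together with RGS5 and VTN, at a median of 9702 UMIs, held 172 PTH1R UMIs (11.4 CPM). The median was 2789 UMIs in endothelium-like and 3897 in pericyte-like cells. Whether cells of this unnamed cluster are doublets was not tested. In that cluster the vehicle rats had 2.76 to 9.92 CPM and the TGFBRi-treated rats 12.5 to 20.2 CPM, without overlap, as 16.1% of genes were higher and 6.92% lower there.

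In sorted single cells the PTH1R level was highest in clusters with fibroblast markers, though in ACI rats most UMIs lay elsewhere. The sorts took CD24+ cells, and all deposited cells of these libraries had at least 2 keratin UMIs and 0 of PTPRC (CD45), since the study's methods removed the others. The study named a small population of such sorts secretory basal cells. By immunofluorescence it found rare EPCAM+ cells with markers of that population in the epithelium, and called the population epithelial. The cells called fibroblast-like here are named from markers, which in SD rats were COL1A1, COL3A1, DCN and LUM. Vascular smooth muscle markers ranked next in this SD cluster, and DES was among its leading genes. The part of such cells was not tested. These sorted fibroblast-like cells had 2396 CPM of keratins in SD rats, against 14578 in basal-like cells and 228 in fibroblast-like cells of whole glands. Their level of the collagen gene COL1A1 was 10981 CPM, against 3.94 and 51537. A COL1A1 UMI was seen in 53.2% of them and a KRT5 UMI in 34.7%. The other fibroblast markers DCN, LUM and PDGFRA were seen in 15.0%, 13.2% and 9.56%, against 97.5%, 90.2% and 52.9% of fibroblast-like cells of whole glands, so that most of these cells had no UMI of them and the name is a loose one. Depth also differed, since 290 of these cells, from TGFBRi rat 4, had a median of 905.5 UMIs. A lack of UMIs is thus not read as a lack of the gene. Per the study's methods, sorted and whole-gland libraries were also made with different kits, so their levels are not like for like. In basal-like SD cells KRT14 was 174 CPM in sorted and 1862 in whole-gland libraries, whereas KRT5 was 1310 and 367. In ACI rats 76.6% of fibroblast-like cells had COL1A1 and 57.4% KRT5. In sorted SD libraries, 188 of 221 PTH1R UMIs lay in 900 fibroblast-like cells (25.5 CPM), whereas 14469 basal-like cells held 19 (0.178 CPM). Luminal progenitor-like cells held 2 UMIs in 11350 cells and mature luminal-like cells 5 in 6129. In sorted ACI libraries, 10 of 69 UMIs lay in 47 fibroblast-like cells (14.7 CPM, exact interval 7.07 to 27.1), 6 of them in 9 cells of 1 vehicle rat. Basal-like cells of ACI rats held 26 UMIs in 7681 cells (0.402 CPM) and mature luminal-like cells 24 in 3502 cells (0.664 CPM, 0.426 to 0.988). Luminal progenitor-like cells of ACI rats held 7 UMIs (0.163 CPM, 0.0655 to 0.336). Free RNA from stromal cells was not measured in these libraries, and levels under 1 CPM are not read as expression.

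With TGFBRi, PTH1R was higher in pericyte-like cells and in the larger fibroblast-like cluster of whole glands. Pericyte-like cells of the 3 vehicle rats had 9.64, 10.5 and 11.4 CPM. Those of the 6 TGFBRi-treated rats had a lowest value of 16.7 and a highest of 25.9. The means were 10.5 ± 0.895 (SD, n = 3) and 21.2 ± 3.52 (SD, n = 6), with no overlap, as in the 15.2% of all genes that were higher without overlap in this class, while 8.28% were lower. The larger fibroblast-like cluster had 14.7, 10.8 and 11.9 CPM in vehicle rats and 17.03 to 41.6 CPM in TGFBRi-treated rats (12.5 ± 2.00 against 29.5 ± 10.7), likewise without overlap, as in 21.8% of genes that were higher, while 7.86% were lower. Since treatment is part of how the genes were chosen, and these shares are large, nothing further is read from the lack of overlap. In the smaller fibroblast-like cluster the rats overlapped, with 3.49, 2.29 and 7.03 CPM in vehicle rats and 4.22 to 10.98 CPM in TGFBRi-treated rats. Over all fibroblast-like cells the groups overlapped too, with 8.40 to 13.2 CPM in vehicle rats and 13.01 to 36.6 CPM in TGFBRi-treated rats. There 22.1% of all genes were higher and 6.25% lower without overlap. Median depth per cell overlapped between treatments. It was 3444 to 4170 UMIs in vehicle and 3644.5 to 5857 in TGFBRi-treated rats in pericyte-like cells, and in the larger fibroblast-like cluster 6798.5 to 8319.5 UMIs in vehicle and 5698 to 9221 UMIs in TGFBRi-treated rats.

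**Figure D2:**
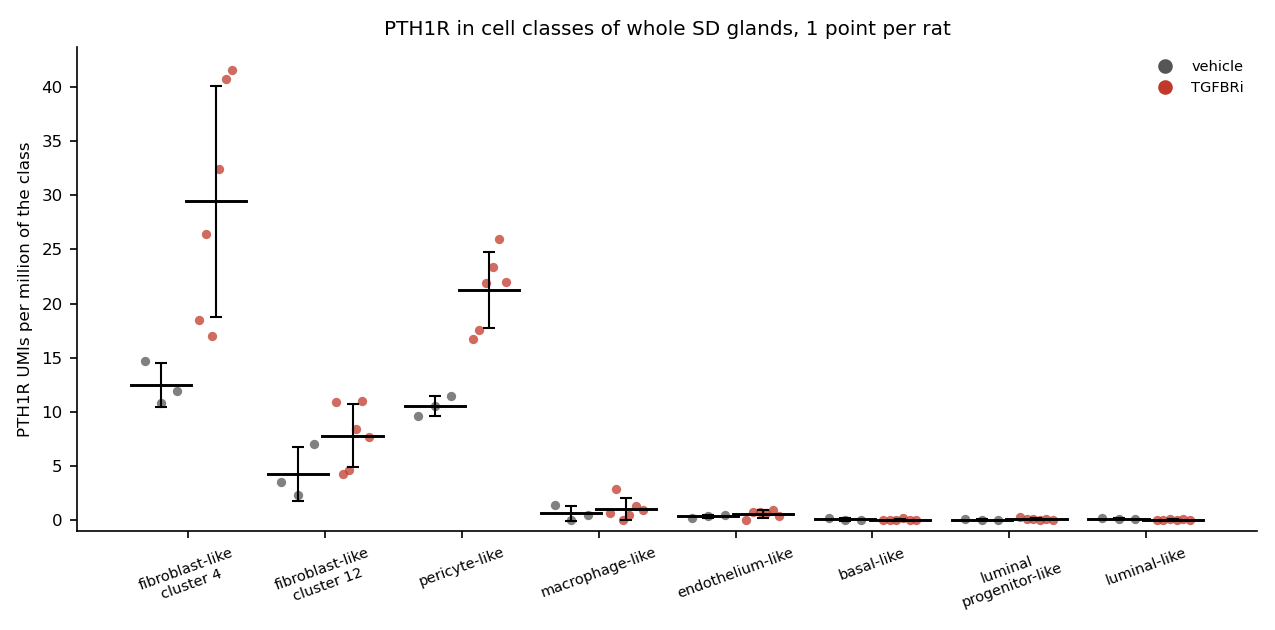
PTH1R CPM of a cell class or cluster in whole SD glands, 1 point per rat, vehicle in grey (3 rats) and TGFBRi in red (6 rats), with the mean and SD of each group in black. The fibroblast-like and pericyte-like cells stand between 2.29 and 41.6, and macrophage-like, endothelium-like, basal-like and luminal classes lie close to 0.

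In fibroblast-like cells of the sorted basal fraction of SD rats no such separation was seen. The 3 vehicle rats had 33.8, 17.6 and 11.6 CPM from only 19, 40 and 9 cells, and the 6 TGFBRi-treated rats 1.08 to 41.96 CPM from 46 to 290 cells. The lowest TGFBRi value came from 1 UMI in 81 cells.

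PTHLH reached its highest RPM in basal cells of adult ACI rats. In virgin rats the normalized counts were 207, 318, 511 and 427 with vehicle and 2793, 848, 6270 and 7873 with TGFBRi. The lowest treated rat was above the highest vehicle rat. The means were 366 ± 132 and 4446 ± 3201 (SD, n = 4 each), and the log2 difference of normalized count + 1 was 3.24 with a standard error of 0.52 from the limma fit over all genes. In this comparison 8.73% of all genes passed the threshold of the fit and 11.4% did not overlap, and since treatment and parity chose the gene, no test is drawn from its value. Without any 1 of the 8 rats the difference ran from 2.82 to 3.89.

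In parous rats the difference was of the other sign and smaller than its standard error. Normalized counts were 417, 209, 423 and 438 with vehicle and 204, 257, 316 and 328 with TGFBRi, and the groups overlapped (372 ± 109 and 276 ± 57.2, log2 difference -0.39 with a standard error of 0.52, in a comparison that 0.00744% of genes passed). Between vehicle-treated virgin and parous rats the log2 difference was 0.04 with a standard error of 0.52. Between TGFBRi-treated rats, parous minus virgin was -3.59 with a standard error of 0.52, with no overlap, in a comparison in which 12.1% of all genes passed and 14.2% did not overlap, and the virgin TGFBRi group is the one these 2 larger differences share.

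Endothelial, fibroblast and basal marker sums overlapped between the virgin TGFBRi and virgin vehicle groups. Endothelial markers summed to 13.7 to 33.6 RPM in the 4 virgin TGFBRi samples and to 31.6 to 393 RPM in the 4 virgin vehicle samples. Fibroblast markers summed to 434 to 5457 RPM and 1208 to 2972 RPM. Basal markers summed to 8252 to 18366 RPM in virgin and 11086 to 14665 RPM in parous TGFBRi samples, and to 8609 to 19412 RPM and 16979 to 20050 RPM in the vehicle samples. Of the 4 virgin treated rats, the one with the lowest PTHLH, rat 2, had the highest basal marker sum (18366 RPM). Virgin vehicle rat 1 stood apart with 688 RPM of macrophage markers, against 6.85 to 8.26 RPM in the other 3. The part of other cells in the PTHLH difference was not tested.

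**Figure D3:**
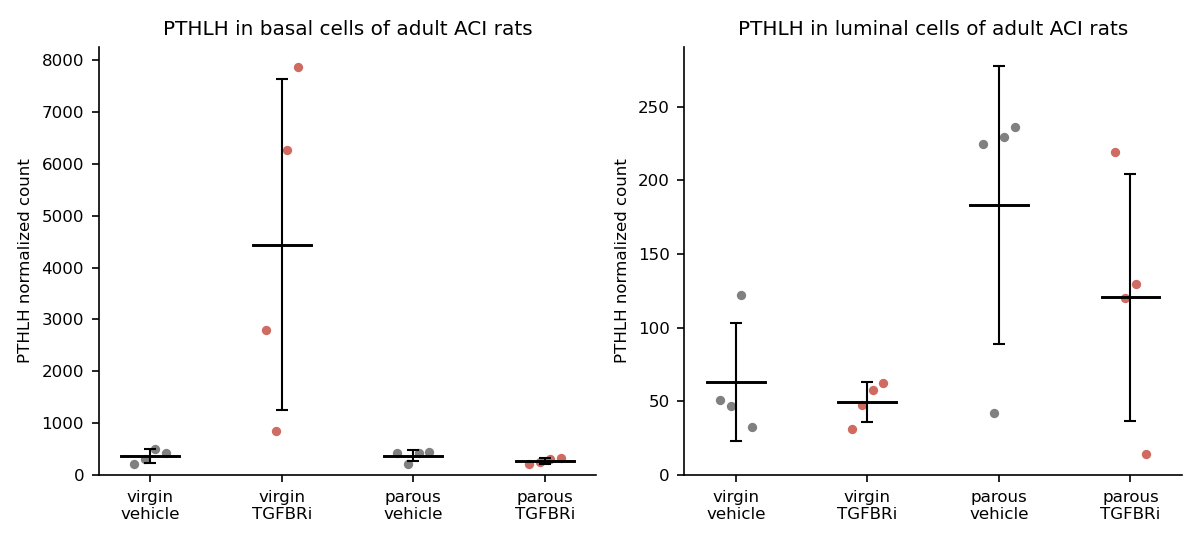
PTHLH normalized counts in basal cells (left) and luminal cells (right) of adult ACI rats, 1 point per rat (4 per group), with the group mean and SD in black. The virgin TGFBRi basal samples reach 848 to 7873, above the 204 to 511 of the other 12 basal samples, and luminal samples run from 14.2 to 236.

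In luminal cells of the same adult rats PTHLH lay between 14.2 and 236 normalized counts and overlapped between treatments. The threshold was passed by 0.0281% of genes with TGFBRi in parous rats and by 0% in the other 3 comparisons. Virgin rats had 51.1, 47.03, 122 and 32.6 with vehicle and 31.5, 47.5, 57.4 and 62.4 with TGFBRi. Parous rats had 225, 41.9, 230 and 236 with vehicle and 219, 120, 130 and 14.2 with TGFBRi. Parous minus virgin was 1.42 with a standard error of 0.74 in vehicle rats and 0.79 with a standard error of 0.74 in TGFBRi-treated rats. The groups overlapped in both comparisons. In CD45+ cells of adult rats, 1 virgin TGFBRi sample had 196 PTHLH normalized counts, and the other 12 samples had 1.78 to 88.6.

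PTH1R in adult basal cells overlapped between treatments in virgin rats. Virgin rats had 161, 130, 120 and 74.3 normalized counts with vehicle and 314, 162, 1.44 and 152 with TGFBRi. TGFBRi rat 3 was nearly devoid of PTH1R reads and had 6270 counts of PTHLH. With it the log2 difference was -0.83 with a standard error of 1.03, and without it 0.76. Parous rats had 127, 172, 106.8 and 82.8 with vehicle and 245, 140, 286 and 159 with TGFBRi, a log2 difference of 0.75 with a standard error of 1.03. In luminal cells of adult rats PTH1R stayed at 96.5 counts or less.

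In young ACI rats the treatment difference in PTHLH of basal cells had opposite signs on day 0 and day 7. At day 0 vehicle rats had 270, 212 and 222 normalized counts and TGFBRi-treated rats 175, 204 and 133, the treated rats being the lower. At day 7 the values were 528, 371 and 550 with vehicle and 873, 569 and 626 with TGFBRi, the treated rats being the higher. Neither group pair overlapped, as in 32.1% of genes for the first and 10.9% for the second, and the differences were -0.47 and 0.51 on the log2 scale, each with a standard error of 0.51, in fits that 3.34% and 0.00639% of genes passed. At day 14 the groups overlapped, with 695, 237 and 223 in vehicle and 206, 163 and 704 in TGFBRi-treated rats, 1 high rat in each.

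The effect of day itself was tested, since time after treatment is not named in how the genes were chosen. Earlier results of these data were known at that choice, which the adjusted p does not allow for. In basal cells of vehicle rats PTHLH averaged 235 ± 31.1 when dosing ended, 483 ± 97.7 a week later and 385 ± 269 by day 14 (SD, n = 3 each). Day 7 minus day 0 was 1.03 with a standard error of 0.51 (limma adjusted p = 0.447) and day 14 minus day 0 was 0.51 with a standard error of 0.51 (limma adjusted p = 0.719, in a fit that 0.0384% of genes passed). The day 7 rats were all above the day 0 rats, as 21.9% of genes did not overlap, and 0.192% of genes passed the threshold. In luminal cells of vehicle rats PTHLH had 69.7, 68.5 and 65.5 counts at day 0. Its day 7 values were 9.85, 9.89 and 30.2, and its day 14 values 33.2, 6.09 and 32.95. The values at both later days lay below day 0, as 27.5% and 23.5% of genes did not overlap. The log2 differences were -2.16 with a standard error of 0.68 (limma adjusted p = 0.147, passed by 0.685% of genes) and -1.77 with a standard error of 0.68 (limma adjusted p = 0.448, passed by 0.389% of genes), and neither passed the threshold. DESeq2 on the recovered reads gave -2.07 and an adjusted p of 0.0295 at day 7, within a range of 0.0295 to 0.161 over the alternative settings.

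With TGFBRi, luminal PTHLH of young ACI rats was 51.2, 216 and 99.3 when dosing ended. A week later it was 219, 102.9 and 123, and by day 14 it had values of 88.5, 89.4 and 32.5. At day 7 the treated rats were all above the vehicle rats, as in 8.91% of genes, with a log2 difference of 3.20 and a standard error of 0.68, in a fit in which 0 genes passed the threshold. At day 0 and day 14 the groups overlapped, with log2 differences of 0.60 and 1.68 and standard errors of 0.68, in fits that 1.01% and 0% of genes passed. PTH1R of the same luminal samples stayed at 27.4 counts or less. At day 0 it was 19.9, 26.7 and 9.34 with TGFBRi and 5.48, 8.75 and 7.46 with vehicle, without overlap as in 32.1% of genes, at a log2 difference of 1.16 with a standard error of 0.86.

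**Figure D4:**
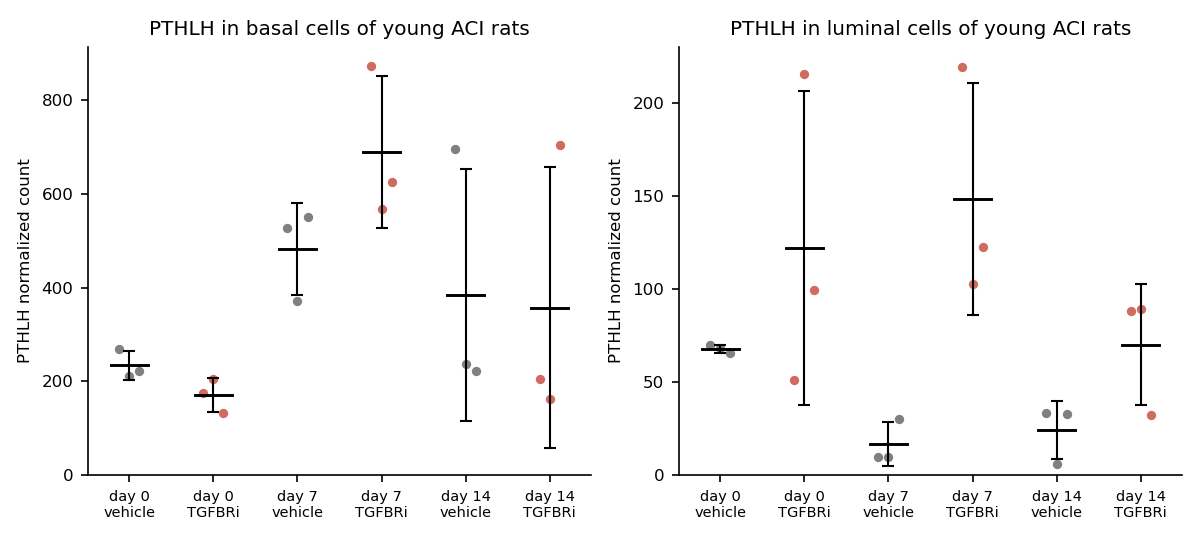
PTHLH normalized counts in basal (left) and luminal cells (right) of young ACI rats at the end of dosing (day 0) and 7 and 14 days later, 1 point per rat (3 per group), with the group mean and SD in black. Basal samples are highest at day 7 (371 to 873) apart from 1 rat per treatment at day 14, and luminal vehicle samples lie at 65.5 to 69.7 on day 0 and at 6.09 to 33.2 later.

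No difference of PTH1R with day was detected in vehicle-treated young ACI rats. Basal cells of vehicle rats had 73.7, 41.6 and 80.9 counts at day 0. Day 7 samples had 79.3, 69.3 and 49.9, and day 14 samples 21.9, 40.5 and 46.7. The log2 differences from day 0 were 0.05 with a standard error of 0.46 (limma adjusted p = 0.985) and -0.84 with a standard error of 0.46 (limma adjusted p = 0.592). With TGFBRi the basal samples had 129, 79.8 and 51.7 counts when dosing ended. A week later these were 92.2, 122 and 77.3, whereas the day 14 samples had only 23.1, 20.6 and 18.2. The day 14 samples of treated rats lay below those of both earlier days, as 42.8% of genes did not overlap with day 0 and 14.7% with day 7, and this difference was not tested. Fibroblast markers of the same samples summed to 525 to 3715 RPM at day 14, against 2221 to 33066 RPM earlier, and their part was not tested. In luminal cells the differences in vehicle rats were 0.09 (limma adjusted p = 0.966) and -0.18 (limma adjusted p = 1), each with a standard error of 0.86, at levels of 1.498 to 13.7 counts.

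In young SD rats PTHLH of basal cells overlapped between treatments. SD basal cells at day 0 had 130, 106.4, 103.6 and 106.4 counts with vehicle and 185, 125, 87.6 and 114 with TGFBRi, a log2 difference of 0.14 with a standard error of 0.26. SD luminal cells had 27.4, 21.4, 29.1 and 28.3 counts with vehicle and 5.17, 23.5, 8.07 and 11.98 with TGFBRi, a log2 difference of -1.25 with a standard error of 0.69. NMU basal cells had 181 ± 9.15 counts in vehicle rats, 208 ± 56.7 in tumor-bearing and 171 ± 83.9 in tumor-free TGFBRi-treated rats (SD, n = 3 each). NMU luminal cells had 188, 53.9 and 7.78 counts in vehicle rats and 9.12 to 33.4 in the 6 treated rats, 2 of 3 vehicle rats being above all treated rats. Against vehicle, 1.31% of genes passed in basal and 0.212% in luminal cells of tumor-bearing treated rats, and 0% and 0.948% in those of tumor-free ones.

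PTH1R in NMU luminal cells was 24.0, 45.3 and 14.7 in vehicle rats, 58.8, 54.2 and 46.1 in tumor-free and 109.6, 28.7 and 87.4 in tumor-bearing treated rats. The tumor-free rats lay above vehicle without overlap, as in 22.2% of genes, at a log2 difference of 1.03 with a standard error of 0.80. Tumor-bearing rats overlapped with vehicle, at 1.33 with a standard error of 0.80. In NMU basal cells the PTH1R differences were 0.57 (tumor-free) and 0.92 (tumor-bearing), each with a standard error of 0.55 and with overlap. In young SD rats they were -0.49 in basal and -0.08 in luminal cells, with standard errors of 0.47 and 1.03 and with overlap.

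Tumor status among TGFBRi-treated NMU rats is not named in how the genes were chosen and was tested, with the same limit of earlier results known. Tumor-free minus tumor-bearing was -0.36 with a standard error of 0.42 for PTHLH in basal cells (limma adjusted p = 0.650) and -0.19 with a standard error of 1.05 in luminal cells (limma adjusted p = 0.998). For PTH1R it was -0.36 with a standard error of 0.55 (limma adjusted p = 0.745) and -0.30 with a standard error of 0.80 (limma adjusted p = 0.987). A difference by tumor status was thus not detected with 3 rats per group, in a fit in which 5.58% of genes passed in basal and 0% in luminal cells. In EPCAM+ tumor cells PTHLH was 148, 92.2 and 72.7 with vehicle and 104.2, 82.5 and 455 with TGFBRi, and PTH1R 3487, 2200 and 974.5 against 2287, 1840 and 2841. Both genes overlapped between treatments there.

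Luminal PTHLH was lower with E2 in TGFBRi-treated rats, the only tested difference of either member that passed the threshold. The genes were chosen with earlier results of these data known, which the adjusted p below does not allow for. TGFBRi-treated rats without E2 had 174, 707 and 312 normalized counts, and tumor-free TGFBRi-treated rats with E2 had 10.5, 6.87, 21.3 and 1.99. All 4 rats with E2 lay below the 3 without, as 18.0% of genes did not overlap. The means were 398 ± 277 (SD, n = 3) and 10.2 ± 8.22 (SD, n = 4), a log2 difference of -5.26 with a standard error of 1.21 (limma adjusted p = 0.0208, a threshold that 4.58% of genes passed). Over the other settings the adjusted p ran from 7.38e-05 to 0.0323. Leaving out 1 rat at a time kept the direction in each of 7 fits, but the adjusted p rose to 0.0814 and 0.0687 without rat 2 and rat 3 of those lacking E2, and to 0.0508 and 0.0653 without rat 2 and rat 4 of those with E2.

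All vehicle rats sampled with E2 bore tumors, though not all such rats of the study did. In vehicle rats luminal PTHLH was 212, 92.2, 254 and 186 without E2 and 8.01, 0, 92.98 and 8.38 with E2. Rat 3 with E2 reached the lowest rat without, and the other 3 lay far below. The log2 difference was -4.21 with a standard error of 1.12 (limma adjusted p = 0.0688, passed by 1.48% of genes), and without that rat -5.32 (limma adjusted p = 0.0163). Over the other settings the adjusted p ran from 0.0703 to 0.226. E2 and tumor status cannot be told apart in these rats. The 2 tumor-bearing TGFBRi-treated rats with E2 had 15.8 and 135 counts. Between treatments, TGFBRi minus vehicle was 0.95 with a standard error of 1.21 without E2 and -0.10 with a standard error of 1.12 with E2 in tumor-free rats, each with overlap and in fits that 0.0147% of genes passed. In tumor-bearing rats with E2 it was 2.34 with a standard error of 1.37, passed by 0.00736% of genes. The CD45+ samples of this experiment held at most 17.2 counts of PTHLH.

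**Figure D5:**
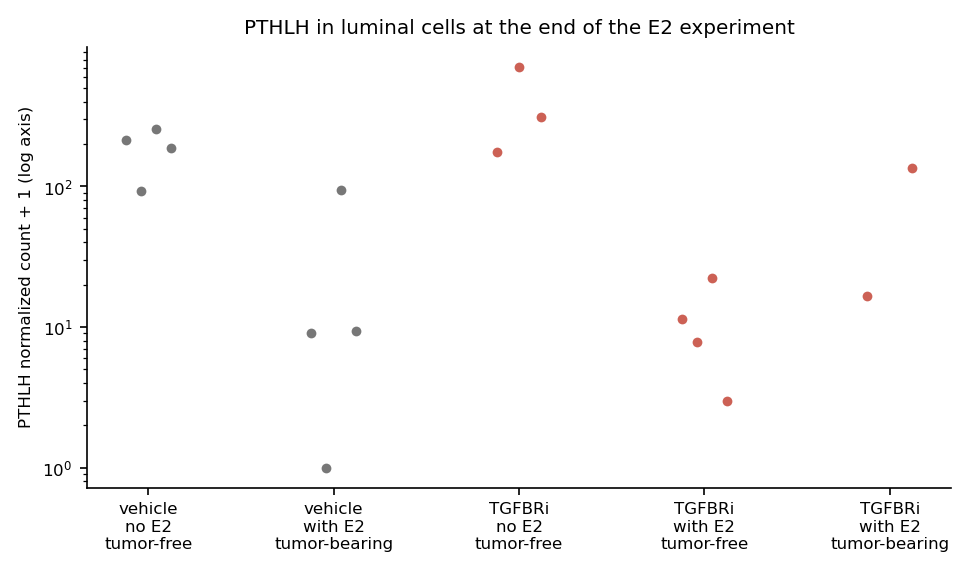
PTHLH normalized count + 1 on a log axis in luminal cells at the end of the E2 experiment, 1 point per rat, vehicle in grey and TGFBRi in red. The 7 rats without E2 lie between 92.2 and 707 counts, and 8 of the 10 rats with E2 at 21.3 counts or less.

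Levels of mature luminal markers were lower with E2 as well. Markers of mature, hormone-sensing luminal cells summed to 1030 to 1165 RPM in the 3 TGFBRi-treated rats without E2 and to 156 to 287 RPM in the 4 tumor-free rats with E2. In vehicle rats they summed to 242 to 1803 RPM without and 83.2 to 157 RPM with E2. The part of this shift in the PTHLH difference was not tested. PTH1R varied widely between rats in the same samples, from 0 to 91.9 counts, and its log2 differences by E2 were -1.64 with a standard error of 1.64 in TGFBRi-treated rats (limma adjusted p = 0.637) and 3.08 with a standard error of 1.52 in vehicle rats (limma adjusted p = 0.364). The first turned to 0.24 with edgeR and 0.22 with DESeq2. Both tumor-bearing TGFBRi-treated rats had 0 counts of PTH1R, against 1.78, 24.6, 88.8 and 25.2 in vehicle rats with E2, as 14.8% of genes did not overlap. Without E2, TGFBRi minus vehicle was 2.97 for PTH1R with a standard error of 1.64. With E2 in tumor-free rats it was -1.75 with a standard error of 1.52, and both overlapped.

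Other genes of the pathway, from a list that holds neither member and of which 91 to 96 passed the filter on low values, were tested in each comparison. In adult basal cells of virgin rats, TGFBRi against vehicle, 11 of 92 tested genes passed the threshold, 1 higher and 10 lower (8.73% of all genes passed). The median log2 difference of the list was -0.34 and that of all genes tested -0.25. GNB1, a G protein β subunit, was higher by 0.92 (limma adjusted p = 0.0416). ADCY4, an adenylyl cyclase, fell by 6.10 (limma adjusted p = 0.00242). PCSK6, a proprotein convertase, fell by 5.45 (limma adjusted p = 0.00688). GLI2, a transcription factor of hedgehog signaling, fell by 4.47 (limma adjusted p = 0.0110). In whole-gland single cells ADCY4 was highest in endothelium-like cells (96.9 CPM), whose marker sums in these samples are given above. PCSK6 was highest in lymphatic endothelium-like cells (37.7 CPM) and GLI2 in fibroblast-like cells (13.1 CPM), against 0.290 and 1.54 CPM in basal-like cells. In the fit over all adult basal groups 36 list genes had an unadjusted p of 0.05 or less, as did 3461 of all 13442 genes, 0 passed when only these 2 groups were fitted, edgeR called 8 and DESeq2 18, and without TGFBRi rat 1 or rat 2 the count was 20 or 19.

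Parous minus virgin among TGFBRi-treated rats, which shares the virgin TGFBRi samples with the comparison above, gave 22 of 92 list genes past the threshold, 19 higher and 3 lower (12.1% of all genes passed), with a median of 0.74 for the list and 0.24 for all genes. GLI2 was higher by 6.26, PCSK6 by 5.65 and ADCY4 by 5.48 (limma adjusted p = 0.00132, 0.00399 and 0.00328). In basal-like cells of whole SD glands these had only 1.54, 0.290 and 0.739 CPM, and their highest classes were not basal, as given above. The part of other cells in this comparison was not tested. GNB1, PRKAR1A and GNAS were lower, by -1.05, -0.61 and -0.55 on the log2 scale (limma adjusted p = 0.0178, 0.0407 and 0.0442). PRKAR1A encodes a regulatory subunit of protein kinase A, and GNAS the Gs α subunit to which PTH1R couples. The count was 6 with only the 2 groups, 13 without parous TGFBRi rat 1 or rat 3, and 34 without virgin TGFBRi rat 1. In parous rats treated with TGFBRi against vehicle, and in vehicle parous against virgin rats, 0 of 92 list genes passed with limma, edgeR or DESeq2, and 7 and 5 had an unadjusted p of 0.05 or less, as did 678 and 408 of all 13442 genes.

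At other times and in other experiments few list genes passed. In sorted basal samples of young ACI rats at day 0, ADCY2, the calcium-sensing receptor CASR and PLCB4 were higher with TGFBRi, by 5.42, 4.99 and 2.41 (limma adjusted p = 0.00857, 0.0494 and 0.0275), 3 of 96 genes, where 3.34% of all genes passed. Vehicle counts were 0 to 25.4 for ADCY2 and 0 to 10.3 for CASR. In whole SD glands ADCY2 was highest in fibroblast-like cells (9.72 CPM) and PLCB4 in endothelium-like cells (97.1 CPM). Basal-like cells there had 0.106 and 2.11 CPM, and CASR had 10 UMIs in all. The part of other cells was not tested. In luminal samples of young ACI rats at day 0 the convertase PCSK5 was higher by 5.20 (limma adjusted p = 0.0366), 1 of 93, against 1.01% of all genes. Its vehicle counts were 0 to 6.27. In whole SD glands it was highest in fibroblast-like cells (33.6 CPM, against 0.142 in luminal-like cells). In NMU basal cells HDAC4 was lower in tumor-bearing TGFBRi-treated rats than in vehicle rats, by -2.06 (limma adjusted p = 0.0442), 1 of 94, against 1.31%. In NMU basal cells, where TGFBRi-treated rats without tumors were compared with those bearing them, 4 of 94 genes passed (5.58% of all genes), with HDAC4, FURIN and CRTC2 higher by 1.78, 1.17 and 0.99 (limma adjusted p = 0.0397, 0.0410 and 0.0490) and RGS2 lower by -1.58 (limma adjusted p = 0.0460). In luminal cells of vehicle ACI rats, day 7 minus day 0, GLI3 and PLCB1 were lower by -1.91 and -1.87 (limma adjusted p = 0.0273 and 0.0215), 2 of 93, against 0.685%. In NMU luminal cells PLCB3, FURIN and GNA12 were higher in tumor-free TGFBRi-treated than in vehicle rats, by 2.07, 1.84 and 1.61 (limma adjusted p = 0.0378, 0.0417 and 0.0478), 3 of 93, against 0.948%. With E2 in tumor-free TGFBRi-treated rats 5 of 91 list genes were lower and none higher, where 4.58% of all genes passed, a share near that of the list. Among them MSX2, a homeobox factor, fell by 6.43 (limma adjusted p = 0.0349), the receptor activity-modifying protein RAMP2 by 4.00 (limma adjusted p = 0.0296) and PLCB1 by 3.83 (limma adjusted p = 0.00256). The list median there was -0.28 and that of all genes -0.04. In whole SD glands MSX2 was highest in luminal-like cells (19.8 CPM, against 0.744 in fibroblast-like cells). RAMP2 was highest there in lymphatic endothelium-like cells (779 CPM, against 13.5 in luminal-like cells). PLCB1 was highest in endothelium-like cells (36.4 CPM, against 25.2 in luminal-like cells). Mature luminal markers were also lower in these samples with E2, as given above, and their part was not tested. In vehicle rats with E2 the matrix gene TNC was higher by 3.48 (limma adjusted p = 0.0206), 1 of 91, against 1.48%. TNC in whole SD glands was 127 CPM in lymphatic endothelium-like, 123 in fibroblast-like and 1.69 in luminal-like cells. The part of such other cells in these E2 differences was not tested. In the other comparisons of gland fractions and tumors limma called 0 list genes, with 1 (NMU basal, tumor-free against vehicle) to 24 (NMU luminal, tumor-bearing against vehicle) at an unadjusted p of 0.05 or less, where 163 of 13312 and 2287 of 14128 genes were. Most of these counts changed by more than 1.5 times under other fits, given with the alternatives.

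In whole glands 98 list genes were read in single cells, and each named class was the highest for 5 to 13 of them. Lymphatic endothelium-like cells led for 13 and NK cell-like cells for 11, as many as the 2 classes that held PTH1R. Pericyte-like cells were the highest class for 13, including the adenylyl cyclases ADCY3 (89.7 CPM), ADCY5 (19.6 CPM) and ADCY6 (43.95 CPM), the phosphodiesterases PDE3A (190 CPM) and PDE4B (327 CPM), which break down cyclic AMP, and the CREB-pathway kinase gene SIK1 (332 CPM). Fibroblast-like cells were the highest class for 11, including the convertase PCSK5 (33.6 CPM), the RANKL decoy receptor TNFRSF11B (82.1 CPM), the growth factor IGF1 (223 CPM) and the hedgehog genes SMO (14.5 CPM), GLI1 (5.70 CPM) and GLI2 (13.1 CPM). Of the 2 fibroblast-like clusters, the larger, PTH1R-richer one had more GLI2 (16.3 against 4.203 CPM), IGF1 (278 against 73.7 CPM) and TNC (166 against 3.17 CPM), and the smaller had more TNFRSF11B (251 against 21.1 CPM) and ADCY2 (30.7 against 2.13 CPM). These are levels over all rats, without a test.

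The genes whose bulk pattern was most like each member were found over 119 basal and luminal gland samples (51 basal, 68 luminal) as Pearson's r of log2(RPM + 1) centred within experiment and fraction, among 11512 genes. For PTHLH these were HS6ST1 (r = 0.65), POLDIP3 (0.63), MOB1A (0.63), RAB5IF (0.62) and TFAP2B (0.62). For PTH1R they were PKIA (0.63), S1PR3 (0.63), PCDH19 (0.62), PDGFRB (0.58) and OSR2 (0.57), of which PDGFRB encodes a growth factor receptor of pericytes and fibroblasts. The samples share libraries, depth and sorting, and these values are a description.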

How the data were processed

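Bulk RNA-seq of sorted rat mammary cells and tumors and single-cell RNA-seq of sorted cells and whole glands were used. Per the labels and the study's methods, the authors aligned bulk reads to rn6 with STAR 2.5.1b, counted them per gene with HTSeq without strand, and deposited counts divided by DESeq2 1.30.1 size factors (unit: signal). Whole reads were recovered for 100% of 2526550 values (tolerance 0.001). Rows naming no gene, in 85 samples, held 23.1 to 42.5% of values and were left out. Single-cell UMI counts were deposited as the authors' Cell Ranger 4.0.0 or 7.0.0 gave them.

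Log2(normalized count + 1) was fitted with limma 3.58.1 (trend, robust) over all groups of a fraction of an experiment, for genes summing to at least 10, with Benjamini-Hochberg adjusted p over all genes and a threshold of 0.05. Cells were clustered per experiment (20 neighbours, 30 components, 2000 genes, resolution 0.8) and named from markers. No doublet caller was run, and all deposited cells, which the authors had filtered, were used. Libraries shared at most 2.509% of barcodes. Alternatives included edgeR 4.0.16 and DESeq2 1.42.0 on the recovered reads. The fitting steps were tested on simulated data. The members and gene lists were chosen with earlier results of these data known. Named genes were the members, up to 3 list genes per direction with the largest change past the threshold, and the 5 most like each member. The 4 parts of 1 rat were averaged.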

Additional observations from a re-analysis of the deposited data

Results flagged for a closer look

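Single distant rats were flagged with Dixon's rule, which flags about 1 in 20 sets of normally distributed values. Counts are skewed and end at 0, so this rate need not hold here and no excess is read. Of 47 sets of values, each 1 member in 1 group of 4 to 6 rats, 10 held 1 rat far from the others. For PTHLH normalized counts these were 130 in basal cells of vehicle SD rats (others 103.6 to 106.4), 209 in basal and 41.9 in luminal cells of vehicle parous ACI rats (others 417 to 438 and 225 to 236), 92.98 in luminal cells of vehicle rats with E2 (others 0 to 8.38), and 17.2 in CD45+ cells of such rats (others 0 to 1.11). For PTH1R they were 349 in basal cells of TGFBRi-treated SD rats (others 91.1 to 108.3), 972 and 171 in CD45+ cells of vehicle and TGFBRi-treated SD rats (others 82.5 to 185 and 60.2 to 74.5), 31.8 in luminal cells of vehicle rats without E2 (others 0), and 91.9 in luminal cells of rats with TGFBRi and E2 that stayed tumor-free (others 0 to 13.2).

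In basal cells of young ACI rats the treatment difference of PTHLH was -0.47 on day 0 and 0.51 on day 7 on the log2 scale, each without overlap between groups. The difference between days was not tested.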

How the results depend on the processing

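No paired analysis was possible because the groups fitted against each other (treatment, day, parity, tumor status, E2) hold different rats, and replicate numbers only follow the order of the samples. Fractions of 1 rat were compared within that rat, as a description. For the members, DESeq2 moved PTHLH in luminal vehicle cells at day 7 past the threshold (-2.07). PTH1R changed sign in luminal vehicle cells at day 14 (0.12 with edgeR, 0.15 with DESeq2) and with E2 in TGFBRi-treated rats (0.24 and 0.22). At resolution 0.4 pericyte-like cells of vehicle rats had a mean of 8.59 CPM. Leaving out 1 rat gave these ranges of log2 differences: PTHLH, basal treatment day 14 -0.86 to 0.32, basal vehicle day 14 -0.02 to 0.80, NMU luminal tumor status -0.52 to 0.35, E2 in vehicle rats -5.32 to -3.14, and E2 in TGFBRi-treated rats -5.74 to -4.73; PTH1R, basal vehicle day 7 -0.25 to 0.23, luminal vehicle day 7 -0.12 to 0.22 and day 14 -0.70 to 0.58, adult virgin treatment -1.58 to 0.76, adult TGFBRi parity 0.0081 to 2.34, and NMU tumor status -0.68 to 0.07 (basal) and -0.88 to 0.07 (luminal). PTH1R turned positive in adult virgin rats without TGFBRi rat 3. Other described PTH1R differences with ranges across 0 were adult basal vehicle parity (-0.20 to 0.18), young SD luminal (-0.73 to 0.89), adult luminal parous treatment (-0.0080 to 1.75) and EPCAM+ tumors (-0.28 to 0.64). Wide PTHLH ranges were 0.07 to 1.10 (young luminal treatment day 0), 0.34 to 1.62 (adult luminal TGFBRi parity) and 0.83 to 3.85 (with E2, tumor-bearing TGFBRi against vehicle). Single values of tested differences that turned were -0.25 and -0.09 (PTH1R basal day 7), -0.022 (PTHLH basal day 14), 0.069 (PTH1R NMU basal), -0.07 and -0.12 (PTH1R luminal day 7), 0.58 (PTH1R luminal day 14), 0.04 and 0.35 (PTHLH NMU luminal) and 0.070 (PTH1R NMU luminal). Ranges of described PTHLH differences crossed 0 in young SD basal (-0.05 to 0.31), adult basal vehicle parity (-0.20 to 0.30) and adult luminal virgin treatment (-0.46 to 0.17). Against vehicle they did so in NMU basal tumor-free (-0.56 to 0.12), basal tumor-bearing (-0.05 to 0.31) and luminal tumor-bearing rats (-2.04 to 0.17). Tumor-free rats with E2 (-1.18 to 1.01) and EPCAM+ tumors (-0.105 to 1.12) did so too.

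Counts of pathway genes called moved most. With only the 2 groups compared they were 13 (young basal day 0), 0 (adult basal virgin), 6 (adult basal TGFBRi parity), 0 (NMU basal, tumor-bearing against vehicle and tumor status), 11 (young luminal day 0), 0 and 10 (luminal vehicle day 7 and day 14), 5 (NMU luminal tumor-free against vehicle), 1 (with E2, tumor-free TGFBRi against vehicle) and 2 (E2 in vehicle rats). With edgeR they were 0 (young basal and luminal day 0, E2 in vehicle rats), 2 (NMU basal tumor status and NMU luminal tumor-bearing against vehicle) and 3 (E2 in TGFBRi-treated rats). With DESeq2 they were 14 (young basal day 0), 4 and 2 (basal vehicle day 7 and day 14), 18 (adult basal virgin), 6 and 11 (NMU basal tumor-bearing against vehicle and tumor status), 3, 1 and 1 (luminal treatment day 0, day 7 and day 14), 6 and 4 (luminal vehicle day 7 and day 14), 8 and 12 (NMU luminal tumor-free and tumor-bearing against vehicle), 2 and 1 (with E2, tumor-free and tumor-bearing TGFBRi against vehicle) and 6 (E2 in vehicle rats). Without the filter they were 0 and 0 in the 2 NMU basal comparisons and 1 (NMU luminal tumor-free), and with a pseudocount of 0.5 the count was 0 (young luminal day 0). Leaving out 1 rat gave 1 to 9 (young basal day 0), 8 to 20 (adult basal virgin), 13 to 34 (adult basal TGFBRi parity), 0 to 11 and 0 to 13 (the NMU basal comparisons), 0 to 10 and 0 to 1 (young luminal day 0 and day 7), 0 to 3 (luminal vehicle day 7), 0 to 17 and 0 to 16 (NMU luminal), 0 to 1 (with E2, tumor-bearing against vehicle), 0 to 4 (E2 in vehicle rats) and 1 to 6 (E2 in TGFBRi-treated rats). The cause was not tested. With 2 to 4 rats per group and PTH1R under 100 luminal counts in most samples, small differences could not be seen.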
